A study of Homo sapiens with 12 samples.

Results

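Kinesins are motor proteins that use ATP to walk along microtubules or to take their ends apart. In dividing cells, one set of kinesins builds the mitotic spindle, moves chromosomes and completes cytokinesis, and its genes are transcribed mainly late in the cell cycle. A different set carries vesicles, organelles and protein complexes along the microtubules of cells between divisions. Taxanes bind the microtubules on which all of these motors run and stabilise them.

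The kinesin genes were the 42 array symbols made of KIF followed by a digit or C and then digits or capital letters, out of 14812 genes with a symbol. One transcript cluster stood for each symbol, the one with the highest mean level, and 3 symbols had more than 1. The rule leaves out CENPE, a kinesin of the kinetochore that carries another name. All 42 were assigned to roles, namely 14 spindle and cytokinesis kinesins, 15 cargo transport kinesins, 5 microtubule end and growth kinesins, 2 Hedgehog and cilium kinesins and 6 less studied kinesins.

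The cells were LNCaP, an androgen-responsive human prostate cancer line, and all of them carried the same control plasmid, MSCV-LMP. Cultures were kept in full serum or in serum treated with charcoal and dextran, which removes steroid hormones. Within each serum they received ethanol as the vehicle, 1 nM cabazitaxel or 1 nM docetaxel for 16 h. This gave 6 groups of 2 replicates, or 12 Affymetrix Human Gene 2.0 ST arrays, hybridised with amplified cDNA of total RNA. Cabazitaxel is docetaxel with a pair of its hydroxyl groups methylated. The labels leave it unsaid whether replicates come from different cultures. All p-values therefore rest on the spread between arrays, which may be technical. In bulk RNA, a smaller share of dividing cells and less transcript per cell cannot be told apart.

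Levels are log2 of the deposited intensity, with a median of 4.48 over all values of the table. The replicates of a group correlated across genes with r from 0.9863 to 0.9922. Of 10 LNCaP markers, 6 were named on the array (KLK2, KLK3, FOLH1, HOXB13, KRT8 and KRT18), and all lay above that median on all 12 arrays. Named markers of fibroblasts (3 of 8 listed), of basal epithelium (3 of 4) and of blood or endothelium (2 of 6) lay between 4.17 and 5.29. VIM, at 4.85 to 5.29, set the top of this range, and VWF came next, at up to 4.87. Both exceeded the median on all 12 arrays, so the range is no measured detection limit. Of the 42 kinesins, 39 exceeded the median on at least 2 arrays and were tested, and 37 did so on all 12 arrays. KIF5A, a neuronal kinesin-1 heavy chain, KIF6 and KIF25 were not tested, with levels from 4.21 to 4.49 over all arrays. KIF21B exceeded the median on 10 arrays and KIF26B on 7. KIF26A, KIF13B, KIF9, KIF17 and KIFC3, among others, lay within the 4.17 to 5.29 of the markers of other cell types on all arrays. KIF4A and KIF4B are near-identical copies, so their probes may read each other's transcripts and their separate values are uncertain.

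Many late cell-cycle genes share a pair of promoter elements, the cell cycle genes homology region (CHR), which is bound by the DREAM and MuvB complexes, and the CCAAT box, bound by NF-Y. Promoter windows from RefSeq on GRCh38.p14 were available for 34 of the 42 kinesins and were searched from 100 bases before to 30 bases after the first listed transcript start. The CHR was searched as TTTGAA, as TTTAAA and as TTCGAA, and the CCAAT box as CCAAT, each on both strands. The windows below belong to the kinesins that passed the serum test, to those with an unadjusted p under 0.01 in a drug comparison over both sera, and to KIF5B as a transport motor. Capitals mark matches, with ATTGG and TTCAAA as the reverse-strand forms, and each is written 5′ to 3′ along its gene's strand.

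KIF22, chr16:29790651-29790780, plus strand: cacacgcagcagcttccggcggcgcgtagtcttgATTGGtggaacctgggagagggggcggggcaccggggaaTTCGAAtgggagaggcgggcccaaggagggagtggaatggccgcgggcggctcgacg
KIF18B, chr17:44947744-44947873, minus strand: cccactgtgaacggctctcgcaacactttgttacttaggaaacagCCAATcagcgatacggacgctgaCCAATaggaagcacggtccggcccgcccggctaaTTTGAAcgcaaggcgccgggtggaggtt
KIF26A, chr14:104138487-104138616, plus strand: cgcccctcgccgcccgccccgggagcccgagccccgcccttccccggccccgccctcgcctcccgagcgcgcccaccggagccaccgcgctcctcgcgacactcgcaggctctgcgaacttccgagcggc
KIF4A, chrX:70290004-70290133, plus strand: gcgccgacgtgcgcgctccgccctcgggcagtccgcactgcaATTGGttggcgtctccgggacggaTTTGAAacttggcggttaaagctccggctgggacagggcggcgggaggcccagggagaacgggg
KIF14, chr1:200620722-200620851, minus strand: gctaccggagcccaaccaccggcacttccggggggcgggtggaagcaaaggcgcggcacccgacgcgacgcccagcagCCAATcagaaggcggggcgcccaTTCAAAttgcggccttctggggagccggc
KIF24, chr9:34329239-34329368, minus strand: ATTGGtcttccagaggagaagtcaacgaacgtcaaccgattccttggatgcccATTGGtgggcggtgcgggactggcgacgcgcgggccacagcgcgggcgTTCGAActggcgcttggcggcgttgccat
KIF2A, chr5:62306106-62306235, plus strand: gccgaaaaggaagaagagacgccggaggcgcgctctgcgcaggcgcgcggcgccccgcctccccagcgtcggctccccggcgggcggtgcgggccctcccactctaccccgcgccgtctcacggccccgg
KIF5B, chr10:32056396-32056525, minus strand: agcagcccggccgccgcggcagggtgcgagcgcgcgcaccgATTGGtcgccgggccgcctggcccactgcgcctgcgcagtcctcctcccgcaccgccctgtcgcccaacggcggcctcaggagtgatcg

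KIF22, KIF18B, KIF4A, KIF14 and KIF24 each hold both elements in this short window. KIF5B holds a CCAAT box without a CHR, and KIF26A and KIF2A hold neither. A CHR match was present in 13 of 14 spindle kinesins (92.9%), all but KIF2B, and in 0 of 11 cargo transport kinesins. All promoters of the RefSeq table held one in 10.6% of 27305 windows, and the tested genes with a window in 6.49%. A CCAAT match was present in 11 of 14 spindle kinesins (78.6%) and in 2 of 11 cargo transport kinesins (18.2%), against 20.8% of all promoters and 23.3% of the tested genes. Both elements occurred together in 11 of 14 spindle kinesins (78.6%), against 2.42% of all promoters and 1.9% of the tested genes. KIF24, a centriolar kinesin outside the spindle list, was the other kinesin with both. The near-identical copies KIF4A and KIF4B were counted separately in these shares, although their windows share long stretches around both matches. In no kinesin window did the elements overlap. A match describes the letters of the window and does not show a bound site.

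**Figure D1:**
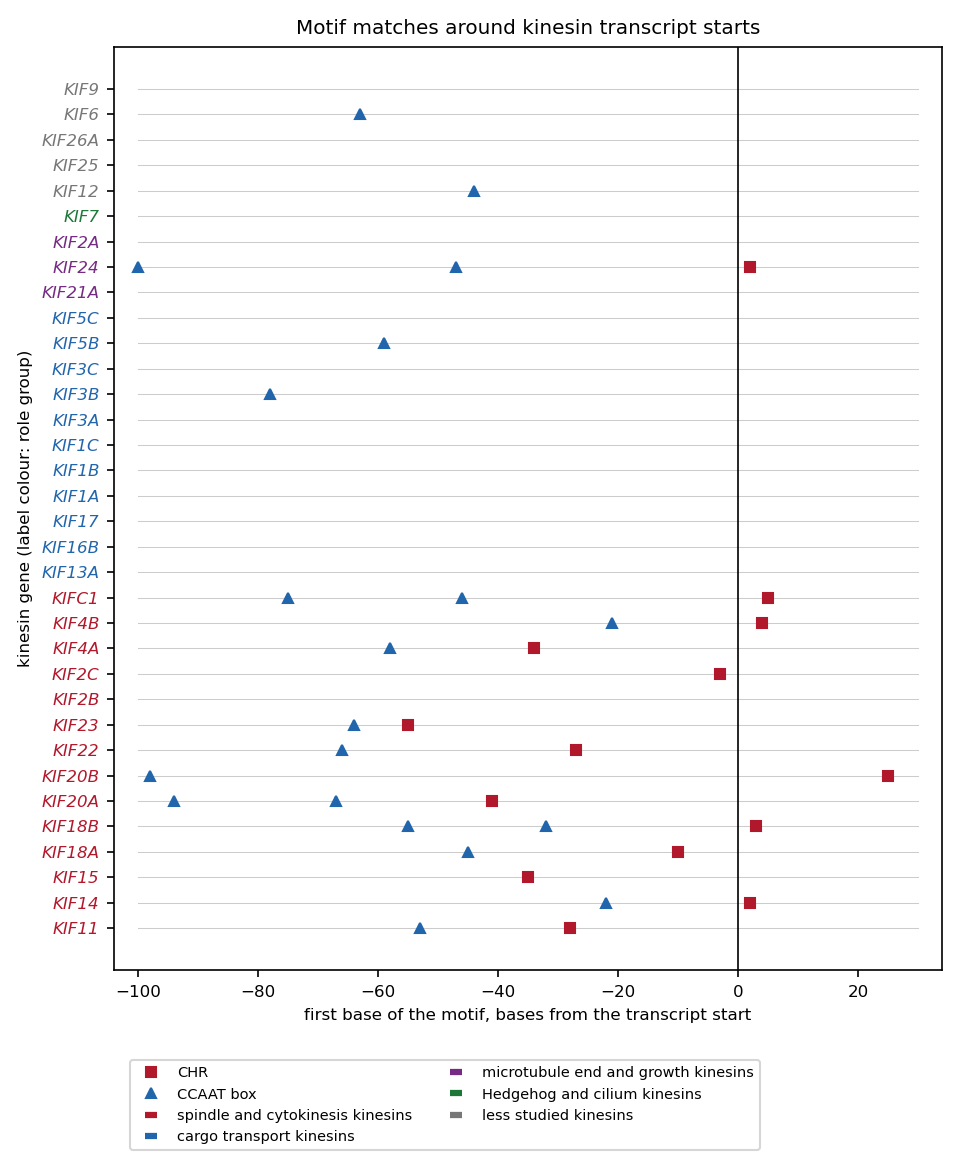
CHR matches (squares) and CCAAT matches (triangles) in the promoter windows of 34 kinesins, plotted by the first base of the match relative to the transcript start (x axis, bases), with gene labels coloured by role. Squares are present in 13 of the 14 spindle kinesins and in none of the 11 cargo transport kinesins.

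Full serum was compared with charcoal serum over the 3 treatments, 6 arrays against 6, to describe the transcript levels of the motors in each serum. KIF22, KIF18B and KIF26A rose in full serum, and no kinesin passed the test in the other direction, in which KIF5B came closest. Of 11105 genes tested, limma called 256 at a Benjamini-Hochberg adjusted p under 0.05, which is 2.31%, with 1.1% higher and 1.21% lower in full serum. Among the 39 kinesins it called 3 (7.69%), all higher. At an unadjusted p under 0.05 there were 7 kinesins higher and 5 lower, against 6.09% and 7.4% of all genes, or 30.8% of the kinesins against 13.5% of the genes.

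KIF22 (transcript cluster 16817647) encodes Kid, a chromokinesin that binds DNA and pushes chromosome arms away from the spindle poles. In charcoal serum its level was 6.77 and 6.42 with vehicle, 6.71 and 6.53 with cabazitaxel, and 6.60 and 6.42 with docetaxel. In full serum it was 7.13 and 7.16 with vehicle, 7.05 and 6.98 with cabazitaxel, and 6.99 and 7.19 with docetaxel. Every array of full serum lay above every array of charcoal serum. The difference was 0.51 on the log2 scale (SE 0.070, limma adjusted p = 0.00259), or 1.42-fold, with mean intensities of 95.8 in charcoal and 136.0 in full serum. It was 0.55 with vehicle, 0.40 under cabazitaxel and 0.58 under docetaxel, where the tests of 2 against 2 arrays gave adjusted p-values of 0.105, 0.382 and 0.102. Within a single treatment 0 kinesins were called, against 0.396%, 0.396% and 0.315% of all genes in the same order, and 6, 5 and 6 kinesins had an unadjusted p under 0.05, against 8.57%, 7.07% and 8.13% of all genes. The difference with cabazitaxel minus that with vehicle was -0.16 (95% interval -0.53 to 0.22). KIF22 stayed called in each of 21 alternative analyses, with differences from 0.45 to 0.59.

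KIF18B (16845794) is a kinesin-8 that shortens microtubules at their plus ends and helps to position the spindle. Its 6 charcoal arrays ran from 5.23 through a median of 5.39 to 5.59, and its 6 full-serum arrays from 5.55 through 5.64 to 5.66. The groups overlapped through 1 array of each, since the first charcoal vehicle array lay above the second full-serum docetaxel array. The difference was 0.25 (SE 0.051, limma adjusted p = 0.0262), or 1.19-fold. It was 0.16 with vehicle, 0.31 under cabazitaxel and 0.28 under docetaxel. The call was lost without replicate 2 of any charcoal group or without any 1 of the 6 full-serum arrays, with adjusted p-values from 0.0535 to 0.0872.

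KIF26A (16789402) belongs to an unconventional branch of the family that binds microtubules without motor activity. Its charcoal arrays ran from 4.88 through 5.04 to 5.15 and its full-serum arrays from 5.18 through 5.20 to 5.26, with no overlap. The lowest values were those of docetaxel in charcoal serum, at 4.88 on both arrays. All 12 arrays lay within the 4.17 to 5.29 of the named markers of other cell types, and no detection limit was measured. Within that range they lay among the values of VIM (4.85 to 5.29). They lay just above VWF, the next highest marker, which reached 4.87. The difference was 0.18 (SE 0.041, limma adjusted p = 0.0426), or 1.13-fold, with 0.09 in vehicle, 0.16 under cabazitaxel and 0.30 under docetaxel. The call held without the second charcoal cabazitaxel array and was lost without any other single array, with adjusted p-values from 0.0642 to 0.118. Subtracting an assumed constant of 16 from the intensities ended both calls while widening the differences, to 0.40 for KIF18B (adjusted p = 0.0707) and 0.35 for KIF26A (adjusted p = 0.0593).

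**Figure D2:**
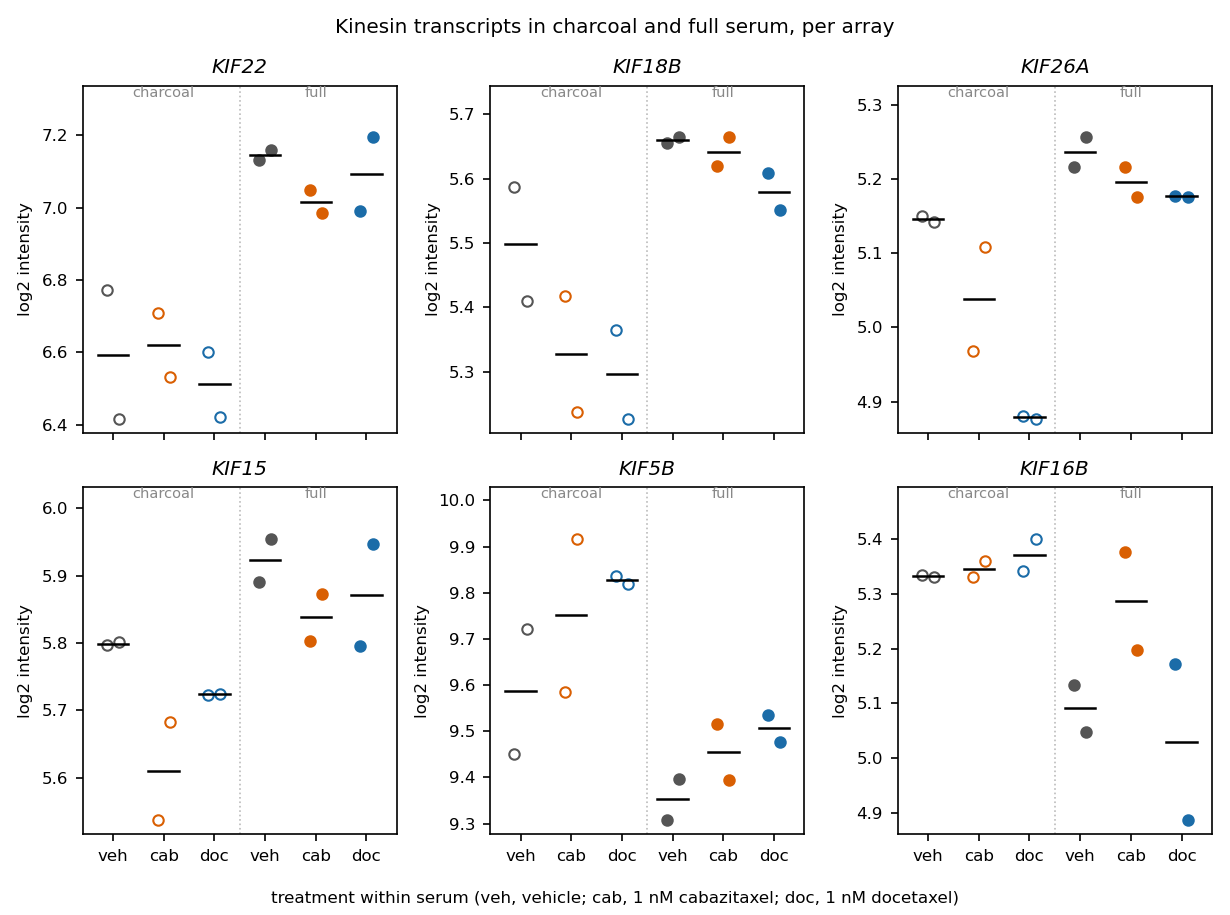
Log2 intensity (y axis) of 6 kinesins on each of the 12 arrays, by treatment within charcoal (open circles) and full serum (filled circles), with a bar at each mean of 2 replicates. All full-serum arrays of KIF22 and KIF26A lie above all charcoal arrays, and KIF5B and KIF16B lean the other way without passing the test.

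Among the spindle kinesins, 2 of 14 passed the test, both higher, against 1.1% of all genes called higher. A positive difference was found in 11 of 14, with a median of 0.069. With vehicle alone 8 were positive (median 0.024), under cabazitaxel 11 (0.12) and under docetaxel 10 (0.060). Over the 3 treatments, without the second charcoal docetaxel array, 9 were positive, with a median of 0.039. Without the first it was 0.11, and without the first full-serum docetaxel array 0.042. Over all genes tested, 49.1% were higher and 50.9% lower, with a median of -0.0014. KIF11, the Eg5 motor that pushes spindle poles apart, ranged from 6.86 through 6.91 to 7.08 in charcoal and from 6.96 through 7.10 to 7.25 in full serum, a difference of 0.15 (adjusted p = 0.254). KIF15, which can take over pole separation from KIF11, ranged from 5.54 through 5.72 to 5.80 and from 5.80 through 5.88 to 5.96, a difference of 0.17 (adjusted p = 0.0994). Neither passed.

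The other spindle motors lay closer together between the sera. The cytokinesis kinesins KIF20A, KIF23 and KIF14 had differences of 0.06, 0.05 and 0.05, and the chromokinesin KIF4A one of 0.015. KIF2C, which takes microtubules apart at centromeres, differed by 0.08, and KIFC1, a minus-end motor that focuses spindle poles, by 0.08. KIF18A, which dampens chromosome movements at the metaphase plate, differed by -0.11, with 5.39 to 5.71 in charcoal and 5.15 to 5.56 in full serum. None of these passed, and their charcoal and full-serum arrays overlapped.

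Of the cargo transport kinesins, 0 of 14 tested passed, 6 were higher and 8 lower, with a median of -0.035, and 6 of them had an unadjusted p under 0.05, against 13.5% of all genes. The median was -0.015 without the first charcoal cabazitaxel array and -0.073 with the constant subtracted. The split and the median include the weak KIF3C, KIFC2, KIF13B, KIF17 and KIFC3, which lay between 4.56 and 4.95 on all arrays. KIF5B (16713085), the widely expressed kinesin-1 heavy chain, ran from 9.45 through 9.77 to 9.92 in charcoal and from 9.31 through 9.44 to 9.54 in full serum. The difference of -0.28 (SE 0.067, limma adjusted p = 0.0548) did not pass. It passed in 5 of 21 alternative analyses, among them those with quantile normalisation (0.0277), with a trended and robust variance model (0.0358), and without the first charcoal vehicle (0.0336) or the first charcoal cabazitaxel array (0.015). KIF16B, which moves early endosomes, ran from 5.33 through 5.34 to 5.40 in charcoal and from 4.89 through 5.15 to 5.38 in full serum, a difference of -0.21 (adjusted p = 0.0852). It passed without the first full-serum docetaxel array (0.036).

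KIF1A, a motor of synaptic vesicle precursors, had the opposite sign, with 5.04 through 5.16 to 5.28 in charcoal and 5.20 through 5.34 to 5.48 in full serum. Its difference of 0.20 (adjusted p = 0.0801) passed only without the first charcoal cabazitaxel array (0.0368). KIF13B lay between 4.78 and 4.89 on the charcoal arrays and between 4.91 and 4.95 on the full-serum arrays, so these did not overlap. Its difference of 0.10 did not pass (adjusted p = 0.249). KIF1C, a vesicle motor, differed by 0.07, and KIFC3, a minus-end motor linked to cell junctions, by -0.035. With KIF22 and KIF26A, KIF13B made 3 kinesins whose full-serum arrays all lay above the charcoal arrays, against 1.23% of all genes, and 0 lay wholly below, against 1.43%.

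KIF2A, a microtubule depolymerase of spindle poles and axons, ranged from 7.34 through 7.43 to 7.61 in charcoal and from 7.19 through 7.33 to 7.50 in full serum. Its difference of -0.14 did not pass (adjusted p = 0.189). The microtubule end and growth kinesins had 3 higher and 2 lower of 5, and the Hedgehog and cilium kinesins KIF7 and KIF27 differed by at most 0.02.

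**Figure D3:**
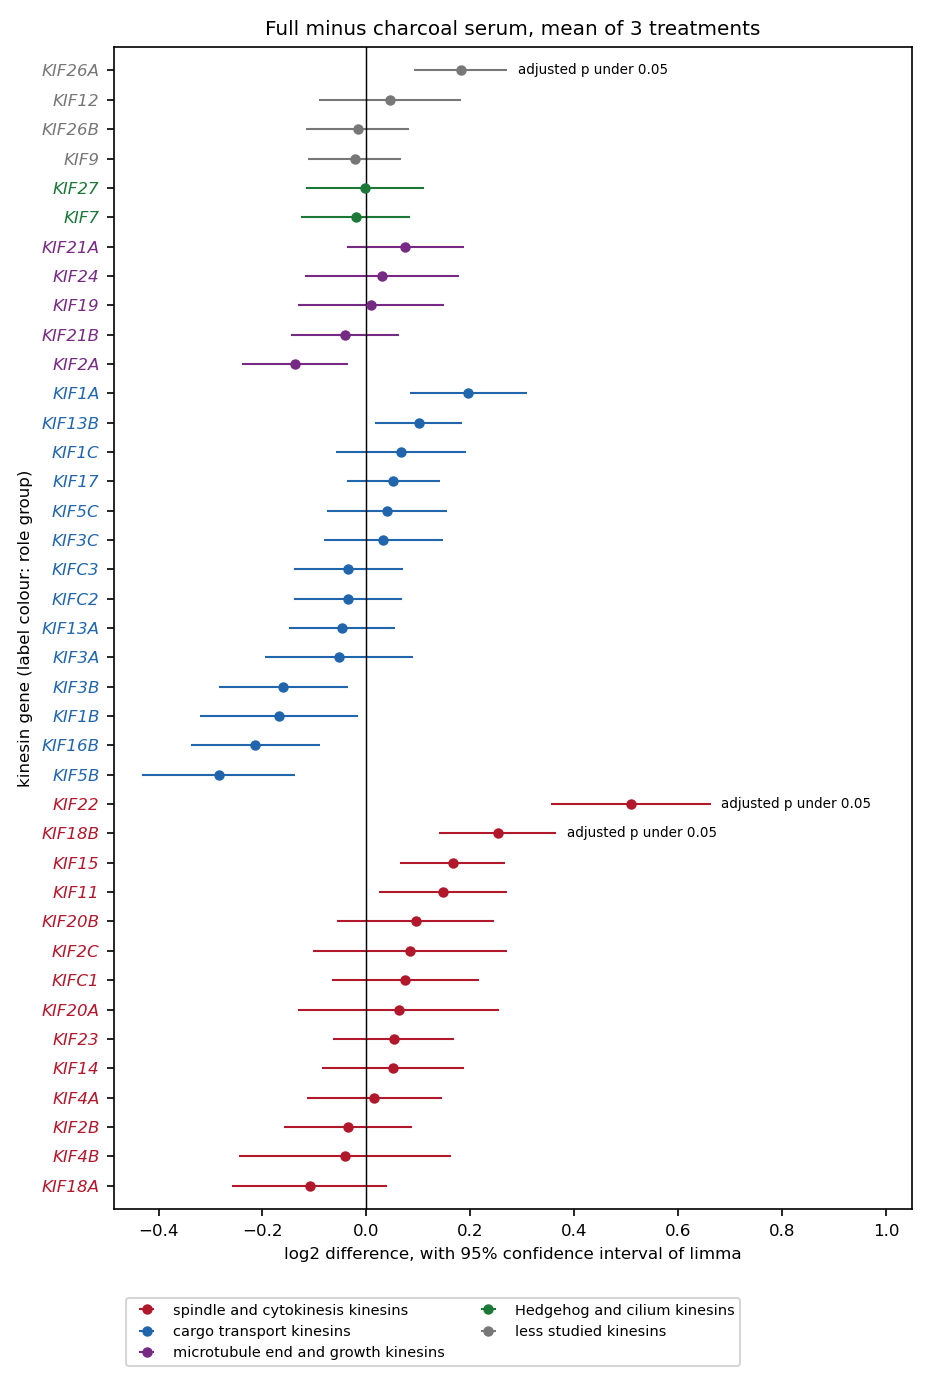
Log2 difference between full and charcoal serum (x axis) for the 39 tested kinesins, as the mean of the 3 treatments, with 95% confidence intervals of limma and gene labels coloured by role. KIF22 at 0.51 stands farthest to the right, and KIF5B at -0.28 farthest to the left.

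The partners of these motors were read in the same comparison. All 16 proliferation genes had positive differences (median 0.15), with 13 positive without the second charcoal cabazitaxel array. With vehicle alone 13 were positive (median 0.077), under cabazitaxel 15 (0.23) and under docetaxel 15 (0.14). Over the 3 treatments 10 had an unadjusted p under 0.05, against 6.09% of all genes, and 3 passed, against 1.1%. These 3 were the replication licensing factor CDC6 (0.52), the ribonucleotide reductase subunit RRM2 (0.29) and the cyclin CCNE2 (0.19). The summed log2 level of all 16 ran from 105.97 to 110.55 on charcoal arrays and from 110.01 to 112.34 on full-serum arrays. The part of these genes in the kinesin differences was not tested. Of the 21 named spindle partners 19 were higher, with a median of 0.053. Among them 0 passed, against 1.1% of all genes higher, and 4 had an unadjusted p under 0.05, against 6.09%. Their median was 0.030 without the first full-serum docetaxel array, 0.034 without the first full-serum cabazitaxel array and 0.083 without the first charcoal docetaxel array. The checkpoint gene MAD2L1 differed by 0.21 (adjusted p = 0.0632) and the mitotic kinase AURKB by 0.23 (adjusted p = 0.144). Light chains and cargo adaptors had 2 of 12 higher and dynein and dynactin genes 7 of 14. None of them was called, against 2.31% of all genes.

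Each taxane was compared with vehicle over both sera, 4 arrays against 4, to describe the transcript levels of the motors under each drug. Motor proteins and their activity were not measured. No kinesin passed for cabazitaxel or for docetaxel, in either serum or over both, and limma called 0 of 11105 genes (0%) in each of these comparisons. At an unadjusted p under 0.05 there were 2 of 39 kinesins for cabazitaxel over both sera, against 4.68% of all genes, and 7 of 39 for docetaxel, against 6.05%. Within charcoal and full serum there were 3 and 2 kinesins for cabazitaxel, against 4.2% and 4.02% of all genes, and 6 and 3 for docetaxel, against 5.11% and 5.2%. The methods' t-test, run in the single-serum comparisons, called 0 kinesins after Benjamini-Hochberg adjustment. Both drugs were compared with the same vehicle arrays, so their values are given side by side.

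KIF24 (17093397), which shortens microtubules at centrioles and restrains cilium formation, had the smallest p for cabazitaxel. With vehicle it measured 5.65 and 5.68 in charcoal and 5.73 and 5.46 in full serum. With cabazitaxel it measured 5.31 and 5.37 in charcoal and 5.37 and 5.25 in full serum. With docetaxel it measured 5.18 and 5.53 in charcoal and 5.54 and 5.55 in full serum. All 4 cabazitaxel arrays lay below all 4 vehicle arrays, as did those of 1.11% of all genes, while the docetaxel arrays overlapped with vehicle.

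The KIF24 difference was -0.30 for cabazitaxel (SE 0.082, unadjusted p = 0.0035, limma adjusted p = 0.854) and -0.18 for docetaxel (SE 0.082, unadjusted p = 0.0494, adjusted p = 0.797). For cabazitaxel it was -0.32 in charcoal and -0.29 in full serum, and for docetaxel -0.31 and -0.06. With the constant of 16 subtracted, the cabazitaxel value was -0.47 and again did not pass. The docetaxel value was -0.28 with the constant subtracted, -0.09 without the first charcoal docetaxel array and -0.11 without the first full-serum vehicle array.

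Under cabazitaxel 12 of 14 spindle kinesins were lower than with vehicle, with a median of -0.083, where 48.9% of all genes were lower and 51.1% higher. Within charcoal serum the median was -0.12 and within full serum -0.019, with 10 of 14 lower in each. The median over both sera was -0.043 without the second charcoal cabazitaxel array and -0.048 without the first charcoal vehicle array. Over both sera 10 to 12 were lower in all alternative analyses. The largest of these were -0.15 for KIF4A (95% interval -0.31 to 0.0065, and -0.10 without the first full-serum cabazitaxel array), -0.14 for KIF15 (-0.26 to -0.013), and -0.13 for both KIF14 (-0.30 to 0.033) and KIF23 (-0.28 to 0.0099), the centralspindlin motor. KIF15 ran from 5.80 through 5.85 to 5.96 with vehicle and from 5.54 through 5.74 to 5.87 with cabazitaxel. KIF23 ran from 6.004 through 6.04 to 6.22 and from 5.84 through 5.95 to 6.02. KIF18A and KIF20A had positive values, 0.11 and 0.06. No spindle kinesin passed, and all had an adjusted p of 1.

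The proliferation genes were lower under cabazitaxel in 16 of 16 cases, with a median of -0.16 and 0 called, and their summed log2 level was 105.97 to 110.48 against 110.18 to 112.34 with vehicle. The helicase subunits MCM5 (-0.45) and MCM3 (-0.29) and the cyclin CCNE2 (-0.24) led them, with adjusted p-values from 0.74 to 0.854. Their part in the kinesin values was not tested. Of the spindle partners 13 of 21 were lower, with a median of -0.039. Without the second full-serum cabazitaxel array 10 were lower and the median turned to 0.0082.

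Cargo transport kinesins under cabazitaxel were split 7 to 7. KIF5C, a kinesin-1 heavy chain best known from neurons, measured 5.46 and 5.51 in charcoal and 5.47 and 5.50 in full serum with vehicle, and 5.55, 5.53, 5.67 and 5.64 with cabazitaxel. Its arrays did not overlap, as for 1.22% of all genes, and its difference of 0.11 did not pass (unadjusted p = 0.109). KIF5B had a difference of 0.13, which ran from 0.05 to 0.22 as the charcoal cabazitaxel arrays were left out in turn and from 0.07 to 0.20 for the charcoal vehicle arrays. KIF16B had one of 0.10, and of 0.06 without the first full-serum cabazitaxel array.

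Under docetaxel the kinesins were split 23 higher to 16 lower, with 55% of all genes higher and 45% lower. KIF2A (16985132) measured 7.38 and 7.44 in charcoal and 7.33 and 7.19 in full serum with vehicle, and 7.59, 7.61, 7.50 and 7.38 with docetaxel. In each serum both docetaxel arrays lay above both vehicle arrays, as held for 3 kinesins (KIF2A, KIF5B and KIF9) and for 4.47% of all genes. The difference was 0.18 (SE 0.057, unadjusted p = 0.00788, adjusted p = 0.757), against -0.0055 under cabazitaxel. KIF26A gave -0.16 (SE 0.050, unadjusted p = 0.00727, adjusted p = 0.757), composed of -0.27 in charcoal and -0.06 in full serum. With the constant subtracted it was -0.32.

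Other transport motors with an unadjusted p under 0.05 for docetaxel were KIF5B at 0.20, KIF1B, a motor of mitochondria and vesicles, at 0.19, and KIF17, a dendritic and ciliary motor, at -0.12. KIF1B stood at 0.34 in charcoal and 0.03 in full serum. Its second cluster, with levels from 4.75 to 4.97, gave -0.0002 over both sera. Without the first charcoal vehicle array the KIF5B and KIF1B values were 0.13 and 0.11. KIF18B had a value of -0.14. KIF9, a motor of motile cilia, measured 4.61 to 4.65 on the vehicle arrays and 4.68 to 4.77 on the docetaxel arrays, without overlap, as for 1.67% of all genes. Its difference of 0.10 had an adjusted p of 0.8.

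The spindle kinesins showed no common direction under docetaxel, with 8 of 14 higher and a median of 0.015. With quantile normalisation 6 of 14 were higher, and the median turned to -0.0087. Over 21 alternative analyses 6 to 10 were higher, and the median ran from -0.042 without the first charcoal docetaxel array to 0.069 without the second. It was also negative without the first full-serum docetaxel array (-0.013) and without the second full-serum vehicle array (-0.0032). KIF11 had a value of 0.03, KIF2C one of 0.0028 and KIF23 one of -0.10. Of the proliferation genes 13 of 16 were lower, with a median of -0.10, and without the first charcoal docetaxel array it was -0.18. Of the spindle partners 13 of 21 were higher, with a median of 0.074 and CCNB2, a mitotic cyclin, at 0.18 (adjusted p = 0.757). Their median was 0.032 with quantile normalisation, and without the first full-serum docetaxel array 9 were higher and it turned to -0.0039. In the dynein list the cargo adaptors HOOK1 and HOOK3 stood at 0.28 and 0.24, and KIFAP3, the cargo subunit of kinesin-2, stood at 0.18. None of them passed.

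**Figure D4:**
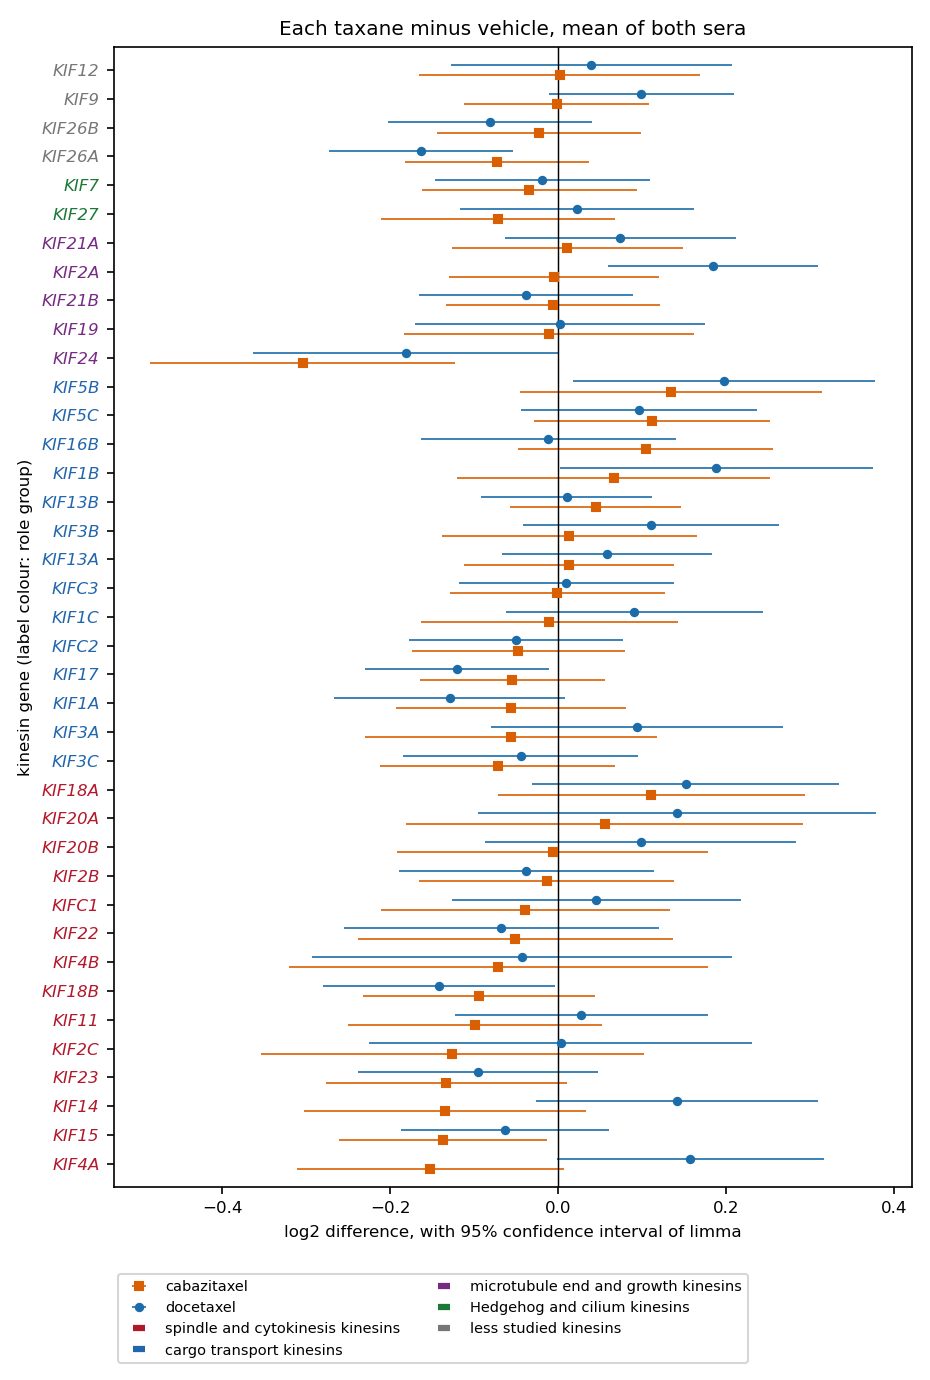
Log2 difference from vehicle (x axis) under cabazitaxel (squares) and docetaxel (circles) for the 39 tested kinesins, as the mean of both sera, with 95% confidence intervals of limma and gene labels coloured by role. Cabazitaxel points of 12 of the 14 spindle kinesins lie left of 0, and no kinesin passed the adjusted test for either drug.

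The 2 taxanes were then compared directly at the same dose and time, which made 1 pair of compounds, tested over both sera and within each. No kinesin passed, and limma called 0 of 11105 genes (0%), with 3 of 39 kinesins and 4.56% of all genes at an unadjusted p under 0.05. Within charcoal and full serum there were 5 and 1, against 5.41% and 2.83% of all genes. The 3 over both sera were KIF4A, KIF14 and KIF2A, all lower with cabazitaxel than with docetaxel.

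KIF4A (17104484), the chromokinesin that works with PRC1 on the central spindle, measured 6.61 and 6.74 in charcoal and 6.73 and 6.94 in full serum with cabazitaxel. With docetaxel it measured 7.21 and 7.05 in charcoal and 7.06 and 6.94 in full serum. Vehicle arrays measured 6.95 and 6.84 in charcoal, between the drugs, and 7.01 and 6.83 in full serum, where they overlapped with both drugs. The drugs' arrays did not overlap, by the narrow margin of 6.9395 to 6.9435 in full serum. KIF4B, the near-identical copy, averaged 6.14 with cabazitaxel and 6.17 with docetaxel. In charcoal serum these KIF4B means were 6.17 and 6.11, and in full serum 6.12 and 6.23.

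The KIF4A difference was -0.31 (95% interval -0.47 to -0.15), with an unadjusted p of 0.00125 and a limma adjusted p of 0.958. It was -0.45 in charcoal and -0.16 in full serum. A contrast of these values, added after they had been seen, gave 0.29 (95% interval -0.03 to 0.61, adjusted p = 1).

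KIF14 (16697695), which anchors citron kinase at the midbody, measured 6.25 and 6.26 in charcoal and 6.46 and 6.44 in full serum with cabazitaxel. With docetaxel it measured 6.75 and 6.51 in charcoal and 6.59 and 6.67 in full serum. These arrays did not overlap either, and KIF4A and KIF14 were the kinesins for which that held, against 1.37% of all genes lower in this way. The KIF14 difference was -0.28 (95% interval -0.44 to -0.11, unadjusted p = 0.00401, adjusted p = 0.958), with -0.37 in charcoal and -0.18 in full serum. KIF2A differed by -0.19 (-0.31 to -0.06, adjusted p = 0.958).

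**Figure D5:**
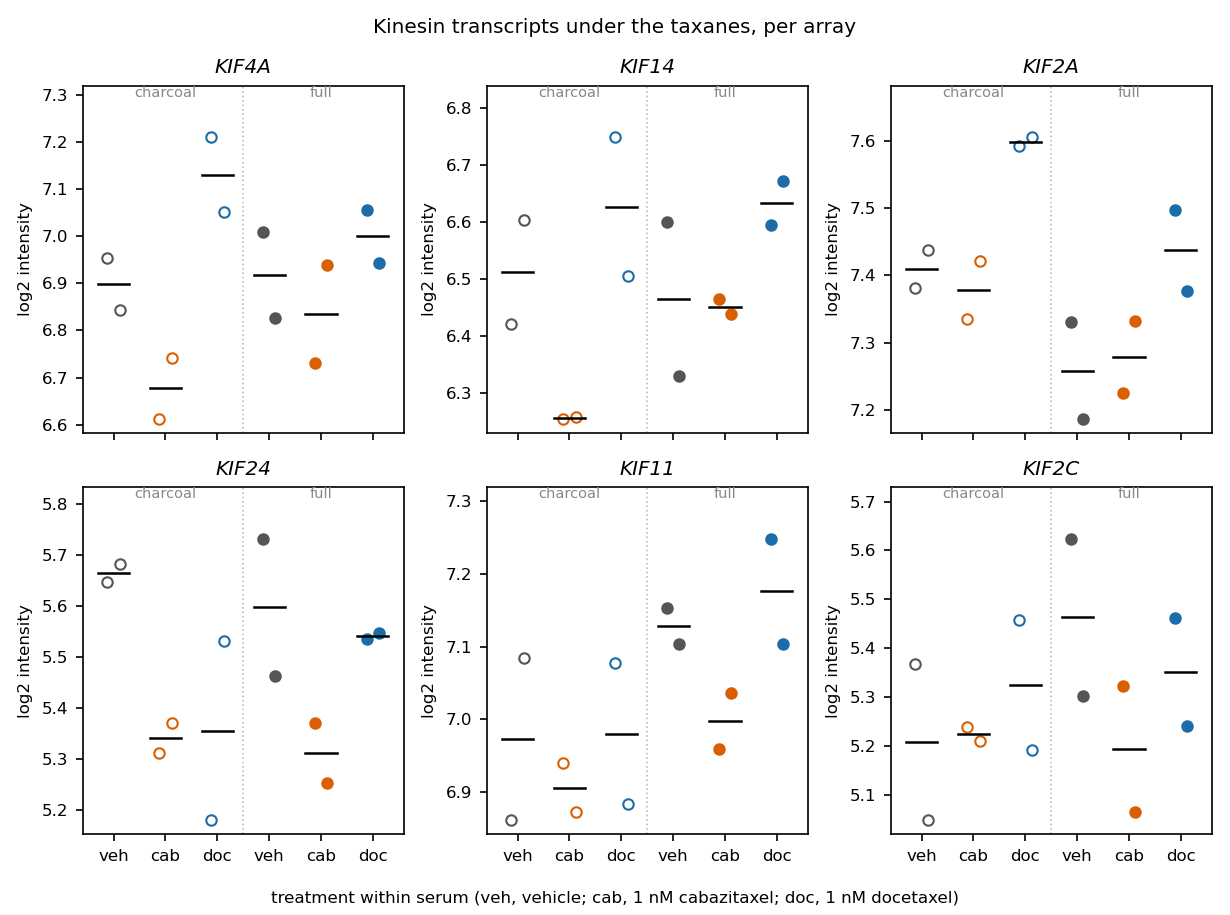
Log2 intensity (y axis) of 6 kinesins on each of the 12 arrays, by treatment within charcoal (open circles) and full serum (filled circles), with a bar at each mean of 2 replicates. The cabazitaxel arrays of KIF4A and KIF14 lie below all their docetaxel arrays, those of KIF24 lie below all its vehicle arrays, and the arrays of KIF11 and KIF2C overlap.

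The spindle group had 11 of 14 members lower with cabazitaxel than with docetaxel, with a median of -0.079, and the spindle partners 20 of 21, with a median of -0.077, where 55.4% of all genes were lower. The drug arrays were those already compared with vehicle, so these counts are not independent of the counts against vehicle. Genes read on the same arrays are not independent of each other either. Under the alternative analyses 1 to 5 of the spindle kinesins and 0 to 4 of the partners were higher. The median of the kinesins was -0.045 without the first charcoal docetaxel array, -0.041 without the first full-serum docetaxel array and -0.042 with quantile normalisation. That of the partners was -0.051 without the first full-serum docetaxel array, -0.13 without the second and -0.12 without the first full-serum cabazitaxel array. Among the partners SGO1, which protects centromeric cohesion, stood at -0.21, the kinase BUB1 at -0.15 and the passenger complex subunit INCENP at -0.13, all with an adjusted p of 0.958. Proliferation genes were lower in 14 of 16 cases, with a median of -0.048 that ran from -0.096 without the second charcoal docetaxel array to -0.011 with quantile normalisation.

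For the remaining spindle motors the drug differences were smaller than those of KIF4A and KIF14. KIF11 differed by -0.13 (95% interval -0.28 to 0.024), KIF2C by -0.13 (-0.36 to 0.099), KIF20A by -0.09 (-0.32 to 0.15), KIFC1 by -0.08 (-0.26 to 0.088) and KIF23 by -0.04 (-0.18 to 0.11). In the other direction the smallest p-values belonged to KIF26A at 0.09 (-0.020 to 0.20), KIF16B at 0.12 (-0.036 to 0.27) and KIF17 at 0.07 (-0.044 to 0.18). Leaving out 1 array moved KIF16B to between 0.045 (the second full-serum docetaxel array) and 0.19 (the first), and KIF26A to 0.05 (the second charcoal cabazitaxel array). These intervals all include 0, and those of KIF11, KIF2C and KIF20A also include the KIF14 difference of -0.28.

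Whether the drug differences of kinesin transcripts were unlike in full and in charcoal serum was tested as an interaction. No kinesin and no gene passed for either drug. At an unadjusted p under 0.05 there was 1 kinesin for cabazitaxel, against 3.42% of all genes, and 0 for docetaxel, against 3.61%. It was KIF17, with 0.06 in charcoal and -0.17 in full serum, a difference of -0.23 (unadjusted p = 0.0421, adjusted p = 0.999). KIF26A under docetaxel gave 0.21 (95% interval -0.011 to 0.43) and KIF1B gave -0.31 (-0.68 to 0.061).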

How the data were processed

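The authors normalised the arrays by RMA and removed low-expressing genes at a threshold not given in the sources used here, per the labels' design text and the submitters' processing notes. The deposited values are intensities on a linear scale from 17.32 to 6307. Whether they hold an added offset is not stated. With such an offset, differences of weak genes would be compressed, which was not measured.

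Here, log2 of each deposited intensity was taken. The annotation named 15835 of 44629 transcript clusters with 1 symbol. A gene entered the fit if at least 2 of 12 arrays exceeded the table's median (22.3). The limma model (version 3.58.1, R 4.3.3) held a mean for each group over all 12 arrays, 6 residual and 5.08 prior degrees of freedom, and two-sided p-values adjusted by Benjamini-Hochberg over 11105 genes in each of 15 comparisons. The fit was tested on simulated data. Precision is limited by the number of arrays, since there is no read depth.

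Kinesins given with array values were those called, the 3 with the smallest p in each direction of the averaged comparisons, and a fixed set of spindle and transport motors. KIF1A, KIF13B and KIF9 were added after their values were seen. The members and gene lists were chosen with earlier results of these data known. Alternatives covered the filter, an assumed offset, the normalisation, the variance model, the arrays in the fit, the cluster of a gene, the methods' t-test, the replicate number and leaving out each array.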

Additional observations from a re-analysis of the deposited data

How the results depend on the processing

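The 31 kinesin differences followed through the alternatives were picked from these same data. They had the 3 smallest p-values in each direction of the averaged comparisons, or an unadjusted p under 0.05. Their signs were therefore unlikely to turn, and differences nearer 0, such as that of KIF4A between the sera, were not among them. Of their 651 alternative values, 0 changed sign, 23 lost their call and 7 gained one. With an assumed constant of 16 subtracted from the intensities, 1 kinesin (KIF22) was called between the sera over all treatments in place of 3, and 132 genes in place of 256. That setting also moved KIF16B to -0.38, KIF1A to 0.34 and KIF13B to 0.22 between the sera, and KIF17 to -0.30 under docetaxel. Leaving out 1 array gave 1 to 4 called kinesins, with KIF22 among them each time, and 149 to 248 genes. Under docetaxel alone the serum comparison gave 0 to 1 called kinesins, and the 1 was KIF22, without either charcoal vehicle array. Deviations of same-numbered arrays correlated at -0.049 to 0.326 over 15 pairs of groups, with 14 above 0 and 10 above 0.1. As not every pair exceeded 0.1 and no label ties the numbers to a shared culture or day, the main analysis was left unpaired, although most pairs deviated together. The fit with the number as a replicate block called 4 kinesins and 359 genes, adding KIF5B (adjusted p = 0.0335). Quantile normalisation also called 4, adding KIF5B, and a trended and robust variance model called 3, with KIF5B in place of KIF26A (adjusted p = 0.0813). The methods' t-test was run only in the 9 comparisons of 2 groups. The cause of these changes was not tested. The 2 arrays in a group limit the precision, and no detection limit was measured.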

Other observations

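KIFC1, the minus-end spindle motor, had 4 transcript clusters on the array. In 3 of them the difference between full and charcoal serum was 0.075, 0.081 and 0.078, and the fourth, with levels from 4.50 to 4.71, gave 0.0022. KIF1B had 2 clusters, with serum differences of -0.17 in the one used above and 0.03 in the other, whose levels ran from 4.75 to 4.97. For KIF1B under docetaxel the same clusters gave 0.19 and -0.0002, so the values of that gene depend on which cluster stands for it. KIF27 had 3 clusters, with docetaxel differences of 0.02, 0.14 and -0.02. No test was made between clusters of a gene.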
